A study of Mus musculus with 8 samples.

Results

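The genes described here are 9 genes of the B cell receptor and of the B cell lineage (Ms4a1, Cd79a, Cd79b, Pax5, Blk, Cd22, Fcrla, Pou2af1 and Blnk), out of 19938 genes that had a probe set of their own on the array. Each of the 9 had exactly 1 probe set with its symbol, so that no choice between probe sets was needed. Tail tumors of TAX-LUC mice were sorted into CD16/32HI and CD16/32LO cells, whose RNA was hybridized to 8 Affymetrix Whole Transcript 1.0ST arrays. The groups were IL-15-/- CD16/32HI, IL-15+/+ CD16/32HI, IL-15-/- CD16/32LO and IL-15+/+ CD16/32LO, with 2 arrays each. Mice of both genotypes carried the TAX and the LUC transgene (TAX+ LUC+), in which Tax of HTLV-1 is driven by the human granzyme B promoter, active in T and NK cells, and luciferase by the HTLV-1 LTR. The IL-15-/- allele has a PGK-Neo cassette in place of coding exons of Il15. IL-15-/- mice on C57BL/6 were crossed with TAX-LUC mice on C57BL/6 and FVB. There were 2 mice per genotype, those of replicate 1 at 14 months and those of replicate 2 at 12 months of age, and each mouse gave both populations. Mice are named here by this age. Cells were Fc-blocked and stained for CD16/32 before sorting. The arrays set the genotypes against each other within each population, and the transcripts followed here are those of B cells. Values are log2 signals, so that a difference of 1 is a doubling.

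The B cell receptor is a membrane immunoglobulin with the signaling chains Cd79a (Ig-alpha) and Cd79b (Ig-beta). When antigen binds, Src-family kinases such as Blk phosphorylate the chains, and the adaptor Blnk couples the kinase Syk to phospholipase C and calcium. Cd22 is an inhibitory co-receptor, Ms4a1 encodes CD20, and Fcrla is an Fc receptor-like protein held inside B cells. Pax5 fixes and maintains B cell identity, and Pou2af1 is a coactivator that works with octamer-binding factors. Blnk is also expressed by macrophages, and Blk by plasmacytoid dendritic cells and some T cells. IL-15 itself is best known for keeping NK cells and memory CD8 T cells alive.

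Promoter sequences are shown for Cd79a, Cd22 and Blnk, as Cd79a and Cd22 are among the genes called between the populations in 3 mice and Blnk ran apart from the other 8. Fcrla was called there as well, and its window, which held no match to the motifs below, is not printed. A window of 250 bases before to 50 bases after the RefSeq start was given for 6 of the 9 genes (GRCm38.p6). The Cd22 and Fcrla windows lie inside the RefSeq gene spans, which reach position 30880342 for Cd22 and 170932216 for Fcrla. Their starts are thus not the outermost ones, and the outer starts were not searched. The windows were searched on both strands for 3 motifs bound by factors of B cells, the octamer (ATTTGCAT), an EBF core (CCCNNGGG) and an ETS core (AGGAAGT). Capitals mark the matches. The octamer lay in the Blnk window only, at 130 bases before the start, and 1.74% of all 32851 RefSeq windows hold it. The ETS core was found in Blnk (202 bases before the start) and Cd79a (55 bases before) and in 9.35% of all windows. The EBF core was found in Cd22 (48 bases before) and in 13.7% of all windows. The Fcrla, Pax5 and Pou2af1 windows held none of the 3 motifs, and a match is a description of letters and not of a bound site. The windows are chr7:24897247-24897546 on the plus strand for Cd79a, chr7:30878979-30879278 on the minus strand for Cd22 and chr19:40994172-40994471 on the minus strand for Blnk.
Cd79a: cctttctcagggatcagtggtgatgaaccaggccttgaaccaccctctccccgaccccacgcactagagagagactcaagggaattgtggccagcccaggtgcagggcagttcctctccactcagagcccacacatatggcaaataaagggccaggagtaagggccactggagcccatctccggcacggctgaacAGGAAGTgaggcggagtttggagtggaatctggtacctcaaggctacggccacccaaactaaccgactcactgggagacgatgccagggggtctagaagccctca
Cd22: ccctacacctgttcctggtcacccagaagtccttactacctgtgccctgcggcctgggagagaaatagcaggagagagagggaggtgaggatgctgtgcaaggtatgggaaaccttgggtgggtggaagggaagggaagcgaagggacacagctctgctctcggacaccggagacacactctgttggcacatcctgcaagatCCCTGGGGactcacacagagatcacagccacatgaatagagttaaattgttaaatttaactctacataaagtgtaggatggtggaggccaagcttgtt
Blnk: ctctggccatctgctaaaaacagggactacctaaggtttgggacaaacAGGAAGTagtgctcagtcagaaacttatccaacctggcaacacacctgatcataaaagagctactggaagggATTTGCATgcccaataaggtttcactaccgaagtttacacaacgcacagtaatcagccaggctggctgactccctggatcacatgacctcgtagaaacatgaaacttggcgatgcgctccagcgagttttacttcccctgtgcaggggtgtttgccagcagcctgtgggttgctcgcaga

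The 14-month IL-15-/- mouse stood apart from the other 3. The neutrophil receptor Cxcr2 was at 12.62 in its CD16/32HI and at 9.93 in its CD16/32LO library as labelled, and the macrophage complement gene C1qa at 7.68 and at 10.73. In the other 3 mice Cxcr2 was at 8.43 to 9.86 in CD16/32HI and at 12.21 to 12.53 in CD16/32LO cells, and C1qa at 10.10 to 11.43 and at 7.94 to 8.16. The labels were kept, and the tests of the 9 genes are given with and without this mouse. Array medians lay between 5.62 and 5.93, and the IL-15-/- medians were on average higher by 0.133 in CD16/32HI and by 0.119 in CD16/32LO cells. Exactly equal values showed 3 sets of arrays normalized together, with the 4 arrays of replicate 1 in the first and each genotype of replicate 2 in a set of its own. Xist was at 10.08 to 10.75 in the IL-15-/- and at 3.92 to 4.64 in the IL-15+/+ arrays, so that sex and genotype cannot be told apart.

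Most of the 9 genes peaked in IL-15+/+ CD16/32LO cells, and there mainly in the 14-month mouse. That array was the highest of the 8 for 7 of the 9 genes, the other IL-15+/+ CD16/32LO array for Cd79a, and the IL-15-/- CD16/32HI array of the 12-month mouse for Blnk. The 14-month IL-15+/+ CD16/32LO array also had the highest median (5.9329, against 5.9265 in the 12-month IL-15-/- CD16/32LO array). The share of all probe sets that peaked in it was not counted. With each gene centred on its mean over the 8 arrays, the 9 genes together averaged -0.19 and -0.27 in the IL-15-/- CD16/32HI arrays and -0.19 and -0.42 in the IL-15+/+ CD16/32HI arrays. They averaged -0.25 and 0.22 in the IL-15-/- CD16/32LO arrays and 0.94 and 0.16 in the IL-15+/+ CD16/32LO arrays. Thus 4 CD16/32HI arrays and the first IL-15-/- CD16/32LO array were low, and 3 CD16/32LO arrays were high. In such sorted bulk samples, fewer B cells and less B cell RNA per cell cannot be told apart.

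**Figure D1:**
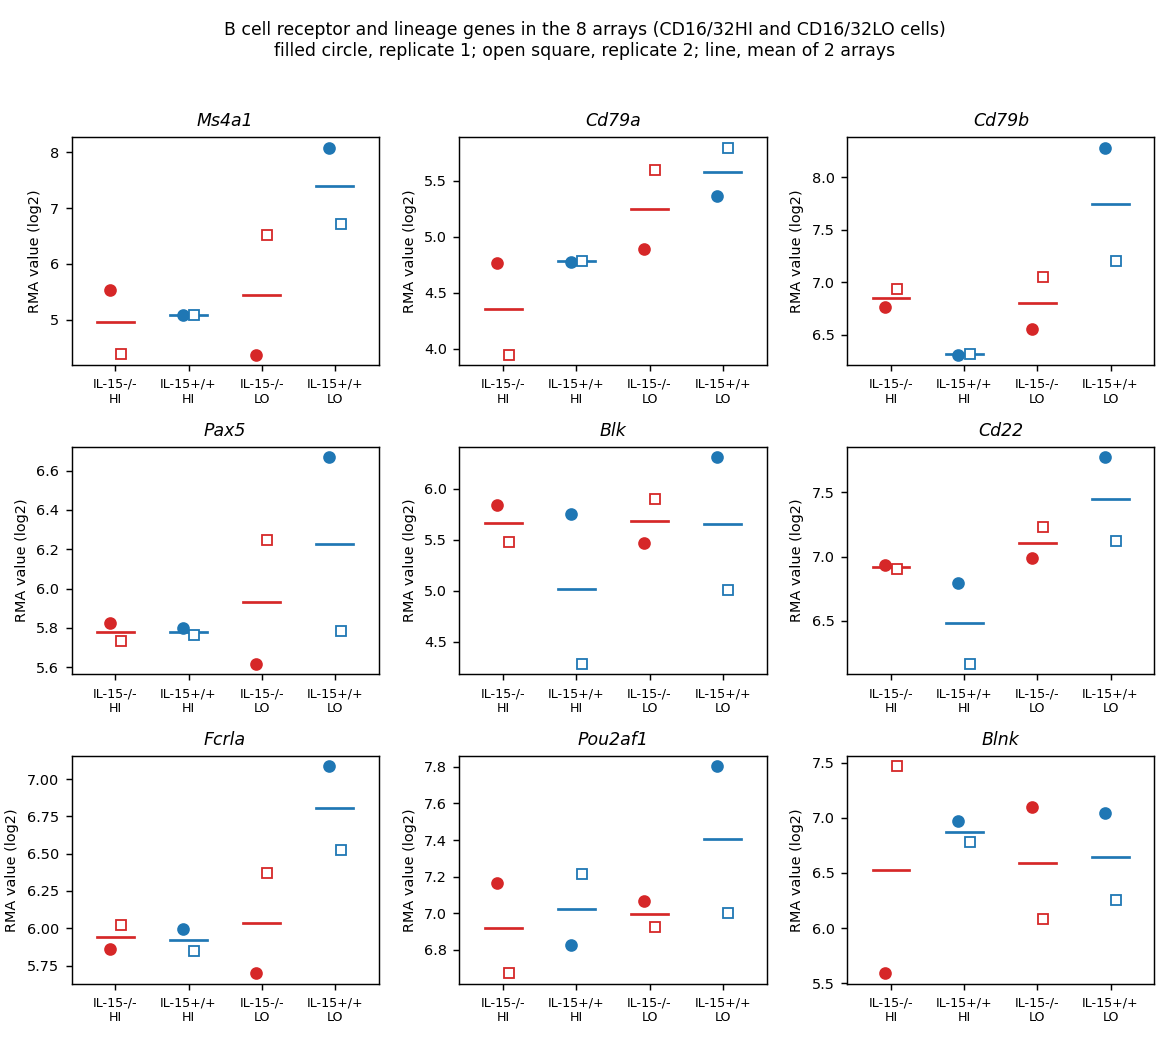
Log2 RMA value of the 9 genes in the 8 arrays, a panel per gene, by genotype and population (HI, CD16/32HI; LO, CD16/32LO). Filled circles are mice of replicate 1 (14 months), open squares mice of replicate 2 (12 months), and lines the mean of 2 arrays; the first IL-15+/+ CD16/32LO array is the highest for 7 of 9 genes.

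The surface gene Ms4a1 had the widest range of the 9, at 3.72. In CD16/32HI cells Ms4a1 was at 5.54 and 4.38 in IL-15-/- and at 5.08 and 5.09 in IL-15+/+ tumors (replicates 1 and 2, as in all pairs of values below). Its CD16/32LO values were 4.37 and 6.52 in IL-15-/- and 8.09 and 6.71 in IL-15+/+ tumors. The higher IL-15-/- CD16/32LO value thus lay 0.19 under the lower IL-15+/+ value, whereas the genotypes overlapped in CD16/32HI cells.

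Of the signaling chains, Cd79b followed the same order in CD16/32LO cells and another in CD16/32HI cells. Cd79b was at 6.56 and 7.05 in IL-15-/- and at 8.28 and 7.20 in IL-15+/+ CD16/32LO cells. Its CD16/32HI values were 6.77 and 6.93 in IL-15-/- and 6.31 and 6.32 in IL-15+/+ tumors, so that here the IL-15-/- arrays were the higher ones. Cd79a was at 4.89 and 5.60 in IL-15-/- and at 5.36 and 5.80 in IL-15+/+ CD16/32LO cells, which overlap. Among CD16/32HI cells Cd79a was at 4.77 and 3.95 in IL-15-/- against 4.78 and 4.79 in IL-15+/+ tumors, a gap of 0.0098 in replicate 1 and of 0.840 in replicate 2.

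The Fc receptor-like Fcrla was at 5.70 and 6.37 in IL-15-/- and at 7.09 and 6.52 in IL-15+/+ CD16/32LO cells, which do not overlap. Fcrla in CD16/32HI cells was at 5.86 and 6.02 in IL-15-/- and at 5.99 and 5.85 in IL-15+/+ tumors and varied little. The inhibitory receptor Cd22 was at 6.99 and 7.23 in IL-15-/- and at 7.78 and 7.12 in IL-15+/+ CD16/32LO cells. Here the second IL-15+/+ array fell between the IL-15-/- arrays. Cd22 in CD16/32HI cells was at 6.93 and 6.90 in IL-15-/- and at 6.80 and 6.16 in IL-15+/+ tumors, and the IL-15-/- values were the higher ones.

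The kinase Blk was at 5.47 and 5.90 in IL-15-/- and at 6.31 and 5.005 in IL-15+/+ CD16/32LO cells, and at 5.84 and 5.48 in IL-15-/- and at 5.75 and 4.28 in IL-15+/+ CD16/32HI cells. Blk was lowest in both arrays of the 12-month IL-15+/+ mouse, which form 1 of the normalization sets and had the lowest medians (5.62 and 5.65). The adaptor Blnk departed from the other 8. It was at 7.10 and 6.08 in IL-15-/- and at 7.04 and 6.25 in IL-15+/+ CD16/32LO cells, and at 5.59 and 7.47 in IL-15-/- and at 6.97 and 6.78 in IL-15+/+ CD16/32HI cells. Its lowest array was thus the IL-15-/- CD16/32HI array of the 14-month mouse, which held the macrophage list at 8.77. Its highest was the IL-15-/- CD16/32HI array of the 12-month mouse, which held that list at 10.90. The IL-15+/+ CD16/32LO array of the 14-month mouse, with Blnk at 7.04, held the macrophage list at 8.94.

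The nuclear genes had the smallest ranges. Pax5 had a range of 1.05, with 5.62 and 6.25 in IL-15-/- and 6.67 and 5.78 in IL-15+/+ CD16/32LO cells, and 5.82 and 5.73 in IL-15-/- and 5.80 and 5.76 in IL-15+/+ CD16/32HI cells. Only the IL-15+/+ array of the 14-month mouse and the IL-15-/- array of the 12-month mouse, both CD16/32LO, stood above the other 6. Pou2af1 had a range of 1.13, with 7.07 and 6.92 in IL-15-/- and 7.80 and 7.002 in IL-15+/+ CD16/32LO cells, and 7.16 and 6.67 in IL-15-/- and 6.83 and 7.22 in IL-15+/+ CD16/32HI cells. A single array, the IL-15+/+ CD16/32LO array of the 14-month mouse, stood apart for it.

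As a description over 8 arrays that come in pairs from 4 mice, Pearson's r of each gene with the mean of the other 8 was 0.943 for Fcrla, 0.918 for Cd79b, 0.903 for Pax5, 0.861 for Cd22 and 0.853 for Ms4a1. It was 0.646 for Pou2af1, 0.505 for Blk, 0.499 for Cd79a and -0.190 for Blnk. Over the 7 arrays without the 14-month IL-15+/+ CD16/32LO array it was 0.836 for Fcrla and between 0.632 (Ms4a1) and 0.712 (Cd22) for Ms4a1, Pax5, Cd79a, Cd79b and Cd22, and it was 0.124 for Blk, -0.272 for Pou2af1 and -0.696 for Blnk. Among 6431 probe sets with a range of at least 1, the 10 whose profile over the 8 arrays was most like the mean of the 9 genes were Gpr174 (0.986), the complement receptor Cr2 (0.981), Gm4759 (0.980), the IgM heavy chain Ighm (0.969), the interferon Ifng (0.967), the early B cell factor Ebf1 (0.966), Ikzf3 (0.959), the IgM Fc receptor Fcmr (0.955), Sh3bp5 (0.951) and Rabgap1l (0.950). Cr2, Ebf1 and Fcmr belong to the list of other B cell genes described here, and Ifng is a product of T and NK cells. Ighm had other probe sets, and the immunoglobulin list uses a brighter one, which was lowest in the 12-month IL-15+/+ CD16/32LO array (5.53). The Ighm probe set named here was at 5.18 and 4.88 in IL-15-/- and 5.01 and 4.75 in IL-15+/+ CD16/32HI cells, and at 5.03 and 5.26 in IL-15-/- and 5.90 and 5.24 in IL-15+/+ CD16/32LO cells.

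The comparison of the genotypes in CD16/32LO cells called 0 of the 9 genes (limma, Benjamini-Hochberg adjusted p = 0.9999 for each of them, with 0.0367% of the 21789 probe sets called). Of the 9, 3 had an unadjusted p under 0.05 (Ms4a1, Cd79b and Fcrla), as did 1.91% of all probe sets (417). The difference of IL-15-/- minus IL-15+/+ was -1.95 for Ms4a1 (SE 0.701), -0.94 for Cd79b (SE 0.353) and -0.77 for Fcrla (SE 0.298). It was -0.41 for Pou2af1, -0.34 for Cd22 and Cd79a, -0.29 for Pax5, -0.056 for Blnk and 0.027 for Blk. The median of the 9 was -0.34, against 0.13 over all probe sets, and 8 of the 9 were below 0, as were 27.0% of all probe sets. For 3 of the 9 genes the IL-15-/- arrays lay wholly under the IL-15+/+ arrays (4.70% of all probe sets), and for 0 wholly over them (24.2%). Only Ms4a1 was over 3-fold lower by its mean, as were 0.239% of all probe sets. Within replicate 1 the IL-15-/- array was the lower for 8 of the 9 genes, and within replicate 2 for 6.

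These differences in CD16/32LO cells depended on single arrays. Leaving out the IL-15-/- array of the 14-month mouse, which held the macrophage list at 10.68 and the neutrophil list at 8.25, brought Ms4a1 to -0.88, Cd79b to -0.69 and Fcrla to -0.43. Leaving out the 14-month IL-15+/+ array brought the same genes to -1.26, -0.40 and -0.49, and leaving out the 12-month IL-15-/- array brought Ms4a1 to -3.03. The median of the 9 genes, -0.34 with all arrays, was -0.014 without the 14-month IL-15+/+ array, -0.74 without the 12-month IL-15+/+ array and -0.61 without the 12-month IL-15-/- array. Without the 14-month IL-15+/+ array, Cd22 was at -0.014 and Pou2af1 at -0.0074. None of the 9 was called without any array of the 14-month IL-15-/- mouse (0.119% of all probe sets called), and 6 of the 9 were then below 0, with a median of -0.43.

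**Figure D2:**
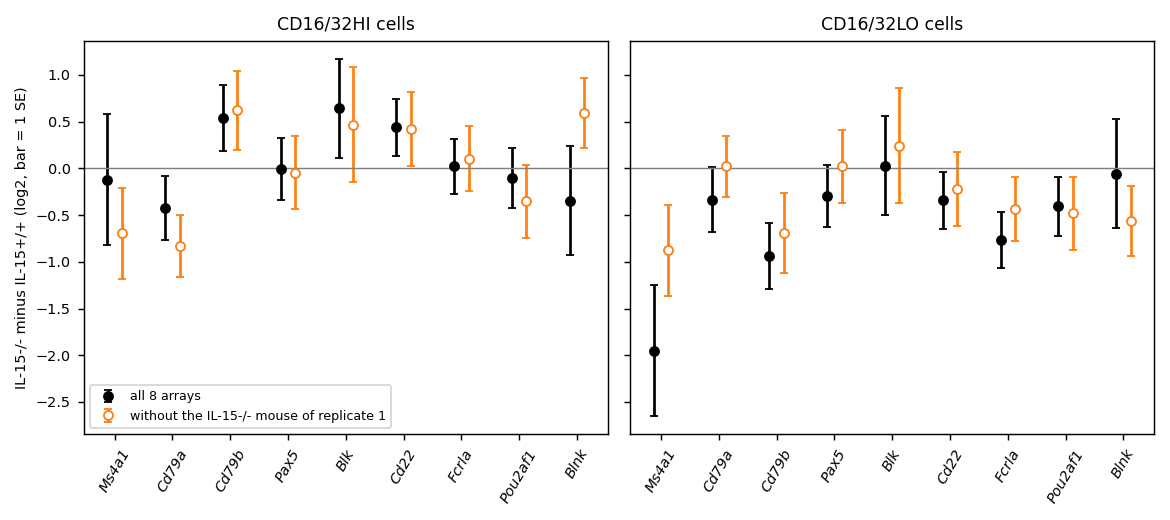
Difference of IL-15-/- minus IL-15+/+ on the log2 scale for the 9 genes in CD16/32HI (left) and CD16/32LO cells (right), with bars of 1 SE from limma. Filled points use all 8 arrays and open points leave out the 14-month IL-15-/- mouse; Ms4a1 in CD16/32LO cells is at -1.95 with it and at -0.88 without it.

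In CD16/32HI cells the genotypes showed no common direction over the 9 genes. Limma called 0 of them (adjusted p from 0.854 to 0.999, with 0.0229% of all probe sets called). IL-15-/- minus IL-15+/+ was 0.64 for Blk (SE 0.531), 0.54 for Cd79b (SE 0.353), 0.44 for Cd22 (SE 0.305) and -0.43 for Cd79a (SE 0.347), and for the other 5 it lay between -0.35 (Blnk) and 0.020 (Fcrla). The median of the 9 was -0.0026, against 0.0944 over all probe sets. The IL-15-/- arrays lay wholly over the IL-15+/+ arrays for Cd79b and Cd22 (24.1% of all probe sets), and wholly under them for Cd79a (10.4%). With the normalization set as a block, the difference was 0.10 for Cd79b and 0.066 for Cd22. That block leaves the genotype level to the 14-month mice, over both populations, since each 12-month genotype is a set of its own. Within replicates 1 and 2 the difference was 0.456 and 0.616 for Cd79b and 0.138 and 0.739 for Cd22. Without the 14-month IL-15-/- mouse again 0 of the 9 were called (0.0413% of all probe sets), and Blnk turned to 0.59.

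Between the populations, most of the 9 genes had their lower value in CD16/32HI cells, compared with CD16/32LO cells from the same tumors. CD16/32HI was the lower for 3 of the 9 genes in the 14-month IL-15-/- mouse, for 8 in the 12-month IL-15-/- mouse, for 9 in the 14-month IL-15+/+ mouse and for 7 in the 12-month IL-15+/+ mouse. With all 4 mice limma called 0 of the 9 genes (adjusted p from 0.920) and 0% of all probe sets (257 at an unadjusted p under 0.05). The median of the 9 was -0.49, against 0.0171 over all probe sets, and 8 of the 9 were below 0, as were 45.9% of all probe sets.

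Without the 14-month IL-15-/- mouse, 5 of the 9 genes were called lower in CD16/32HI cells (7.62% of all probe sets were), and 0 were called higher (6.67%). Ms4a1 differed by -2.26 (SE 0.234, adjusted p = 0.000359 from limma within mice) and the chain Cd79a by -1.08 (adjusted p = 0.00653). Cd22 differed by -0.76 (adjusted p = 0.0169), Fcrla by -0.70 (adjusted p = 0.0232) and Blk by -0.57 (adjusted p = 0.0273). Cd79b missed the threshold at -0.99 (adjusted p = 0.0501), and Pax5 (-0.47, adjusted p = 0.129) and Pou2af1 (-0.34, adjusted p = 0.367) did not pass either. Blnk was the only gene of the 9 above 0, at 0.61 (adjusted p = 0.139). All 3 CD16/32HI arrays lay below all 3 CD16/32LO arrays for Ms4a1, Cd79a, Cd79b, Cd22 and Fcrla (9.50% of all probe sets did). Blk was called on its differences within mice although its arrays overlapped between the populations. Cd79a and Blk lay below the array median in 7 of all 8 arrays, and Ms4a1 in 5. These results hold for 3 mice, of which 1 was IL-15-/-.

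**Figure D3:**
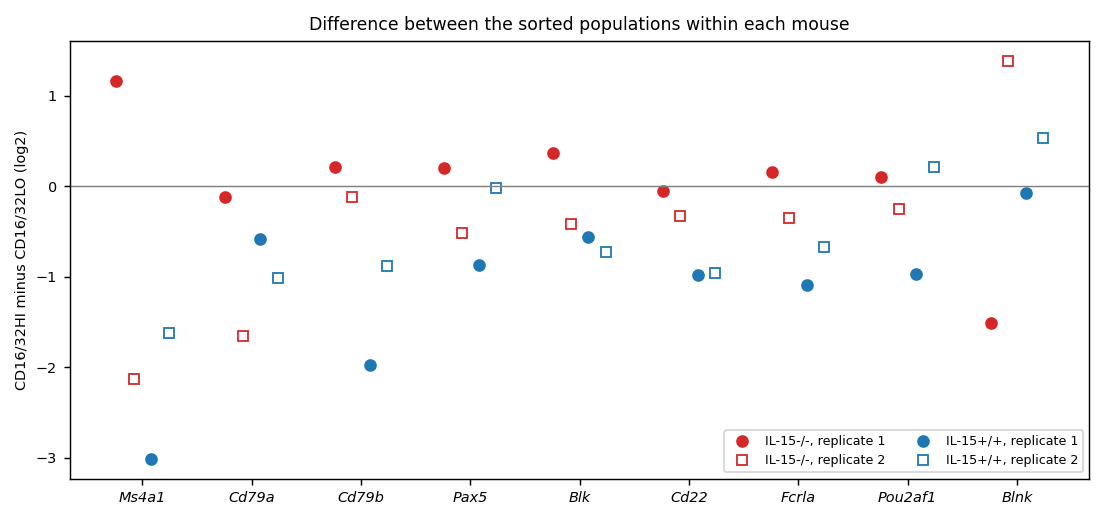
CD16/32HI minus CD16/32LO on the log2 scale within each of the 4 mice for the 9 genes; red marks are IL-15-/- and blue marks IL-15+/+ mice, filled circles replicate 1 (14 months) and open squares replicate 2 (12 months). In the 14-month IL-15-/- mouse only 3 of the 9 genes lie below 0, against 7 to 9 in the other mice.

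The difference between the genotypes was not called as different between the populations for any of the 9 genes (limma within mice, adjusted p from 0.878), nor for any other probe set (0% called, 578 at an unadjusted p under 0.05). The difference of differences, CD16/32HI minus CD16/32LO, was 1.83 for Ms4a1 (SE 1.23), 1.48 for Cd79b (SE 0.440), 0.79 for Fcrla (SE 0.310) and 0.78 for Cd22 (SE 0.235), with a median of 0.62 over the 9 genes and -0.0466 over all probe sets. Of these, Cd79b and Cd22 had an unadjusted p under 0.05. Ms4a1, Cd79b and Blnk were called without either array from the 12-month IL-15-/- mouse (with 13.0% of all probe sets), and the IL-15-/- side then rested on the mouse of replicate 1 alone. Without that mouse, Ms4a1 was at 0.18 and Cd79b at 1.31, and 0 were called.

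Other genes of B cells were counted in the same way. Of 22 other B cell surface and nuclear genes 21 were analysed here. None was called between the genotypes in CD16/32LO cells, where their median was -0.46, 18 of the 21 were below 0 and 10 had IL-15-/- arrays wholly under the IL-15+/+ arrays (4.70% of all probe sets). The largest differences were those of Ebf1 (-1.897, SE 0.630), which acts with Pax5 in B cell commitment, of H2-Ob (-1.46, SE 0.361), a modulator of class II peptide loading in B cells, and of the scaffold Bank1 (-1.31, SE 0.401). H2-Ob was at 6.52 and 6.84 in IL-15-/- and at 8.72 and 7.57 in IL-15+/+ CD16/32LO cells, without overlap. Ebf1 was at 4.45 and 5.44 in IL-15-/- and at 7.86 and 5.82 in IL-15+/+ CD16/32LO cells. Both again were highest in the IL-15+/+ array of the 14-month mouse.

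Without the 14-month IL-15-/- mouse, 9 of these 21 genes were called lower and 2 higher in CD16/32HI cells (7.62% and 6.67% of all probe sets). Lower were Fcrl1 (-1.99), Cr2 (-1.79), Ebf1 (-1.77), the tetraspanin Cd37 (-1.22), Fcmr (-1.15), Bank1 (-1.09), the IgE receptor Fcer2a (-1.02), H2-Ob (-0.91) and Vpreb3 (-0.66). Higher were Cd180 (1.42) and Cd72 (0.89). Cd180 is a relative of the Toll-like receptors that macrophages express as well.

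Many of the components that carry the receptor signal onward are shared with myeloid cells, and 17 of 19 listed genes were measured. In CD16/32LO cells their median was -0.13 with 0 called, the largest differences being those of Lat2 (0.70), Fcgr2b (0.67) and Syk (-0.40). Their CD16/32HI median was 0.51 (0.0944 over all probe sets), and 12 of the 17 had IL-15-/- arrays wholly over the IL-15+/+ arrays (24.1% of all probe sets), again with 0 called. Without the 14-month IL-15-/- mouse, 8 were called lower in CD16/32HI cells (7.62% of all probe sets), namely the kinase Syk (-1.49), Pik3ap1 (-1.25), the phosphatase Ptpn6 (-0.91), Prkcb (-0.66), Vav1 (-0.64), Ptprc, which encodes CD45 (-0.62), Pik3cd (-0.60) and the phospholipase Plcg2 (-0.52). The inhibitory Fc receptor Fcgr2b, which encodes CD32 and so is part of the sort gate, was higher in CD16/32HI cells (1.61), as was the adaptor Lat2 (1.37). Syk was at 9.45 and 7.79 in IL-15-/- and 7.68 and 7.20 in IL-15+/+ CD16/32HI cells, and at 7.95 and 9.18 in IL-15-/- and 9.22 and 8.72 in IL-15+/+ CD16/32LO cells. Its 4 high arrays were those with the neutrophil list at 10.14 or more.

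Genes of plasma cells, of early B cells and of immunoglobulins gave few calls. Over all probe sets the genotype difference in CD16/32LO cells had a median of 0.13, with 0.0367% called. Of 10 plasma cell genes 0 were called between the genotypes in CD16/32LO cells (median 0.083), and the largest differences were those of the joining chain Jchain (-0.97), Mzb1 (-0.82) and the syndecan Sdc1 (0.40). Without the 14-month IL-15-/- mouse, 1 of the 10 was called lower in CD16/32HI cells, as were 7.62% of all probe sets. It was the secretory regulator Xbp1 (-0.67, adjusted p = 0.0161 from limma). Of 7 early B cell genes 0 were called in CD16/32LO cells (median -0.030), with the largest differences in Dntt (-1.18), Vpreb1 (-0.72) and Cd93 (0.66). Between the populations 0 of the 7 were called without that mouse, against 7.62% of all probe sets lower and 6.67% higher in CD16/32HI cells. Of 11 immunoglobulin genes 0 were called between the genotypes in CD16/32LO cells (median -0.096). The light chain segments Igkv10-96 and Igkv19-93 (related segments may share probes) differed by -1.41 and -0.72 and the heavy chain Igha by -0.75. Of the 11, only Igha was called lower in CD16/32HI cells without that mouse (-1.25, adjusted p = 0.000736 from limma), against 7.62% of all probe sets. Igha was at 5.65 and 4.89 in IL-15-/- and 5.65 and 4.98 in IL-15+/+ CD16/32HI cells, and at 5.26 and 6.25 in IL-15-/- and 6.64 and 6.38 in IL-15+/+ CD16/32LO cells. In CD16/32HI cells the median genotype difference of the 11 immunoglobulin genes was -0.32, with 0 called (adjusted p from 0.50 in limma). There 5 of the 11 had IL-15-/- arrays wholly under the IL-15+/+ arrays (10.4% of all probe sets) and 2 wholly over them (24.1%).

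Of 9 factors that attract B cells or keep them alive, 8 were measured and 0 were called in CD16/32LO cells with all arrays (0.0367% of all probe sets). Their median was 0.14, against 0.13 over all probe sets, the largest differences being those of Cxcl12 (1.03), Cxcl13 (0.95) and Il21 (0.46). The follicular chemokine Cxcl13, a ligand of Cxcr5, was high in both populations of a single IL-15-/- mouse. It was at 6.32 and 9.93 in IL-15-/- and 8.56 and 6.78 in IL-15+/+ CD16/32HI cells, and at 6.35 and 10.91 in IL-15-/- and 7.70 and 7.66 in IL-15+/+ CD16/32LO cells. Cxcl12, the stromal chemokine that retains B cell precursors in marrow, had the same high mouse, with 5.22 and 6.47 in IL-15-/- and 5.45 and 5.49 in IL-15+/+ CD16/32HI cells and with 5.18 and 7.34 in IL-15-/- and 5.30 and 5.17 in IL-15+/+ CD16/32LO cells. It was called higher in IL-15-/- CD16/32LO cells without the 14-month IL-15-/- mouse (2.11, adjusted p = 0.0395 from limma), and that call rests on 1 IL-15-/- array.

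Markers of other cells moved over the same arrays, and their part in the B cell results was not tested. In IL-15-/- CD16/32LO cells the mean of 7 of 8 listed T cell markers was 5.52 and 6.26, against 7.41 and 7.35 in IL-15+/+ CD16/32LO cells, and that of all 8 NK cell markers 5.21 and 5.26, against 7.20 and 6.97. Both list means were lower in both IL-15-/- arrays, as Ms4a1, Cd79b and Fcrla were. Of the 7 T cell markers, 5 had IL-15-/- arrays wholly under the IL-15+/+ arrays and 1 wholly over them. The latter was Cd4, at 5.76 and 5.71 in IL-15-/- and 5.60 and 5.49 in IL-15+/+ CD16/32LO cells. Limma called Cd8b1 (-2.45, adjusted p = 0.0172) and Gzma (-3.61, adjusted p = 0.0301) lower there, with 0.0367% of all probe sets called. The second IL-15+/+ CD16/32LO array was near the first for T cell markers and lower than the first for 8 of the 9 B cell genes. Its median over all probe sets was lower as well (5.65, against 5.93 in the first). The share of all probe sets that were lower in it was not counted. The mean of all 7 neutrophil markers was 11.02 and 7.72 in IL-15-/- and 7.93 and 7.61 in IL-15+/+ CD16/32HI cells, and 8.25 and 10.78 in IL-15-/- and 10.14 and 10.56 in IL-15+/+ CD16/32LO cells. The mean of 7 of 8 macrophage markers was 8.77 and 10.90 in IL-15-/- and 10.63 and 10.22 in IL-15+/+ CD16/32HI cells, and 10.68 and 8.84 in IL-15-/- and 8.94 and 8.76 in IL-15+/+ CD16/32LO cells. In the IL-15-/- CD16/32HI array of the 14-month mouse, where neutrophil markers were at their highest, the 9 B cell genes averaged -0.19 around their means. Plasmacytoid dendritic cell markers (5 of 7 measured) were at 6.08 and 5.94 in IL-15-/- and 6.12 and 5.43 in IL-15+/+ CD16/32HI cells, and at 5.98 and 6.05 in IL-15-/- and 6.20 and 6.54 in IL-15+/+ CD16/32LO cells. The mean of all 5 conventional dendritic cell markers was 5.02 and 5.33 in IL-15-/- CD16/32LO cells, against 5.56 and 6.92 in IL-15+/+ CD16/32LO cells, and so was lower in both IL-15-/- arrays as well. Their median genotype difference there was -1.23, with 0 called and 4 of the 5 at an unadjusted p under 0.05. Epithelial markers lay between 5.46 and 6.12 over the 8 arrays. Of the gate, Fcgr2b was at 9.13 and 10.82 in IL-15-/- and 10.98 and 10.38 in IL-15+/+ CD16/32HI cells, and at 10.97 and 8.87 in IL-15-/- and 9.31 and 9.18 in IL-15+/+ CD16/32LO cells. Fcgr3, which encodes CD16, lay between 10.59 and 11.37 in all 8 arrays.

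**Figure D4:**
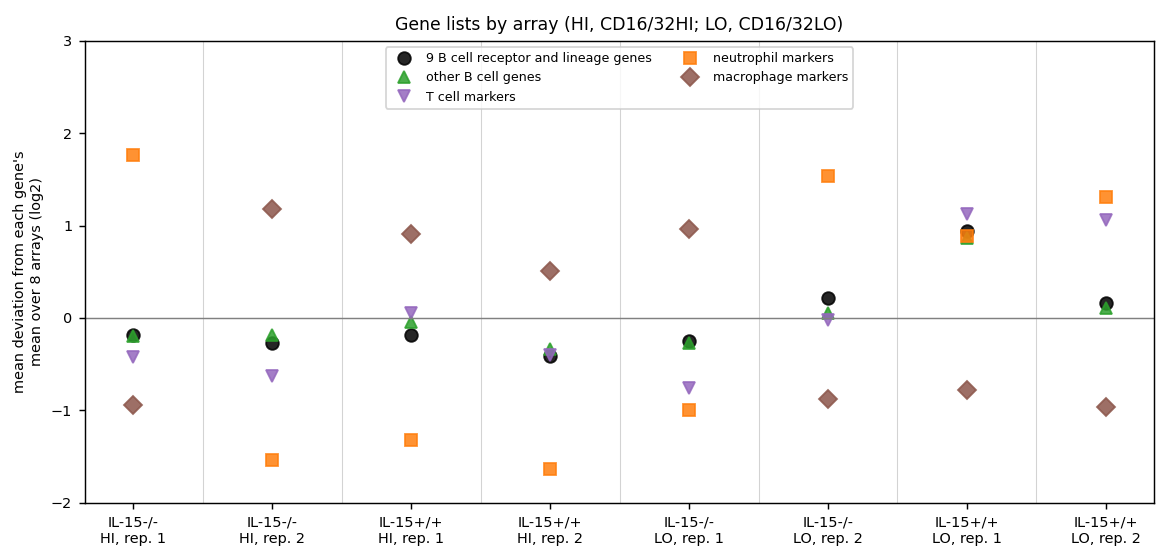
Mean deviation on the log2 scale from each gene's mean over the 8 arrays, by array, for the 9 B cell receptor and lineage genes, other B cell genes and T cell, neutrophil and macrophage markers. The 9 genes and the other B cell genes run close together and are highest in the first IL-15+/+ CD16/32LO array (0.94 and 0.87), and neutrophil and macrophage markers of the 14-month IL-15-/- mouse run against its population labels.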

How the data were processed

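The deposited table holds log2 RMA signals, which the authors made in Affymetrix Expression Console (background correction, quantile normalization and summary); software versions are not given in the sources used here. All 35557 probe sets of the 8 arrays were read, and 21789 with exactly 1 symbol in GEO's platform annotation were tested. Group labels and replicate numbers came from the sample labels. With R 4.3.3 and limma 3.58.1 (lmFit, eBayes), genotypes were compared within each population on 4 group means of all 8 arrays, and populations within mice, with Benjamini-Hochberg adjustment over all 21789 probe sets and calls at an adjusted p under 0.05. The code was tested on simulated data. The number of arrays (2 per group) limits the precision. All 9 genes are named. Of each other list apart from the markers of other cells, every called gene and the 3 with the largest genotype difference in CD16/32LO cells are named. The genes, lists and tests were chosen with earlier results of these data known. Alternatives were leaving out arrays or the 14-month IL-15-/- mouse, centring, quantile normalization, other sets of probe sets, blocks for replicate number and normalization set, and the 1-way test that the methods name.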

Additional observations from a re-analysis of the deposited data

Results flagged for a closer look

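Cd79b, which encodes the Ig-beta chain, was set apart because its genotype difference ran in opposite directions in the populations. In CD16/32HI cells both IL-15-/- arrays (6.77 and 6.93) were above both IL-15+/+ arrays (6.31 and 6.32), and in CD16/32LO cells both IL-15-/- arrays (6.56 and 7.05) were below both IL-15+/+ arrays (8.28 and 7.20). The difference of these differences was 1.476 on the log2 scale (SE 0.440) and did not pass the test (adjusted p = 0.878 from limma within mice). It was 1.31 without the 14-month IL-15-/- mouse. With the normalization set as a block the CD16/32HI difference of Cd79b was 0.10, against 0.54 without the block. Each genotype of replicate 2 is a set of its own. In that fit the genotype level thus rests on the 14-month mice, over both populations. Within replicates 1 and 2 the CD16/32HI difference of Cd79b was 0.456 and 0.616.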

How the results depend on the processing

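Of 27 values (9 genes in 3 comparisons), 12 turned direction when 1 array was left out. With each array centred on its median, with the normalization set as a block and with quantile normalization, the median genotype difference of the 9 genes in CD16/32HI cells became -0.136, -0.287 and -0.136, that of Blk in CD16/32LO cells -0.092, -0.69 and -0.11, and that of Fcrla in CD16/32HI cells -0.11, -0.37 and -0.13. Blk in CD16/32HI cells turned to -0.069 with the set block, in which the genotype level rests on the 14-month mice. Without any array of the 14-month IL-15-/- mouse, the CD16/32HI median was 0.103, Blnk in CD16/32HI cells 0.59, Cd79a and Pax5 in CD16/32LO cells 0.020 and 0.021, the median difference between the genotype differences 0.222, and 5 genes were called between the populations. The cause was not tested.

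Leaving out 1 array at a time, the CD16/32LO median ran from -0.738 to -0.014, the CD16/32HI median from -0.050 to 0.142, the median difference between the genotype differences from 0.222 to 0.914 with 0 to 3 calls, and calls between the populations from 0 to 5. In CD16/32HI cells the genotype difference ran from -0.090 to 1.38 for Blk, -1.29 to 0.59 for Blnk, -0.062 to 0.10 for Fcrla, -0.70 to 0.45 for Ms4a1, -0.048 to 0.042 for Pax5 and -0.35 to 0.14 for Pou2af1. In CD16/32LO cells it ran from -0.63 to 0.68 for Blk, -0.56 to 0.45 for Blnk, -0.69 to 0.020 for Cd79a and -0.74 to 0.15 for Pax5. Between the populations it ran from -0.35 to 0.61 for Blnk and -0.38 to 0.020 for Pou2af1. In CD16/32LO cells Ms4a1, Cd79b and Fcrla stayed at or below -0.88, -0.40 and -0.43, while Cd22 and Pou2af1 came to -0.014 and -0.0074.

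Between the genotypes of a replicate number, r of deviations was 0.056 in CD16/32HI and 0.134 in CD16/32LO cells. These values rest in part on the 14-month IL-15-/- mouse, whose markers run against its population labels. They therefore cannot decide whether replicate numbers pair the genotypes. With the replicate block, limma called 6 probe sets for CD16/32LO cells and 3 for CD16/32HI cells, where it called 8 and 5 without it, and 0 of the 9 genes. With the set block it called 2 and 0. Without 1 array it called 3 to 11 and 2 to 4, with 0 to 3114 between the populations and 0 to 2831 for the difference of the genotype differences. The methods' 1-way test gave 778 probe sets for CD16/32LO cells and 1045 for CD16/32HI cells at an unadjusted p under 0.05 and 0 after adjustment in both. An alternative with another probe set per gene could not be run, since each gene has 1. With the brighter probe sets only, Ms4a1, Cd79a and Blk are not tested.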
